A study of Mus musculus with 4 samples.

Results

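A set of 2166 distal regions carried an ATAC-seq peak in both CTCF-K20R libraries and in neither WT library on day 4 of embryoid body differentiation. ATAC-seq uses the Tn5 transposase to cut accessible DNA, so that a peak marks open chromatin. The peaks of the 4 deposited lists were merged into 80380 regions, of which 61652 were distal, meaning that their strongest summit lay over 1000 bp from every protein-coding transcription start site (TSS) and outside protein-coding exons. Of these distal regions, 3.51% met the rule and are called K20R-restricted. For comparison, 7864 distal regions had peaks in both WT lists and in no K20R list (WT-restricted), 23033 had a peak in all 4 lists (common) and 28589 showed other combinations. The members were selected on the presence and absence of deposited peaks and on peak rank, so their absence from the WT lists is a description of the selection and not a result.

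WT and CTCF-K20R cells were of the E14Tg2A mouse embryonic stem cell line, and each genotype was represented by 2 libraries. In the K20R cells, lysine 20 of CTCF was changed to arginine by CRISPR/Cas9. Cells of both genotypes had been kept on inactivated mouse embryo fibroblasts with leukemia inhibitory factor and the 2i inhibitors, and were then differentiated as hanging drops without leukemia inhibitory factor. How many targeted colonies stand behind the 2 K20R libraries is not given in the sources used here. Promoter peaks of the embryoid body markers T, Eomes, Mixl1, Mesp1, Nanog, Sox2 and Fgf5 were in all 4 lists, whereas that of Pou5f1 was missing from the list of K20R replicate 1. Among the fibroblast markers, Col1a1, Col1a2, Thy1 and Twist2 also had a promoter peak in all 4 lists, Prrx1 had one in 3 lists and Postn in none. Because the embryoid bodies were assayed in bulk, more cells with an open region and more frequent opening per cell cannot be told apart.

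Distal open regions include enhancers, which are bound by transcription factors that recognise short sequences, and CTCF sites, at which loops between distant regions can be anchored. Naive pluripotent cells use factors such as ESRRB, KLF2 and NANOG, whereas GATA, forkhead and T-box factors act in the emerging mesoderm and endoderm. A large part of the mouse genome also consists of interspersed repeats, copies of mobile elements, some of which carry binding sites and open in early embryonic cells.

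The following windows of 201 bp, each centred on a summit and read from the plus strand of mm10 unless stated, show what the members looked like. The first pair are members of a sequence family described further on, shown for their likeness. Capitals mark bases that were the same in an alignment of the longer windows of 301 bp around both summits. Some capitals therefore match bases that lie outside the other printed window.
Gnai1 (family B), chr5:18453306-18453506: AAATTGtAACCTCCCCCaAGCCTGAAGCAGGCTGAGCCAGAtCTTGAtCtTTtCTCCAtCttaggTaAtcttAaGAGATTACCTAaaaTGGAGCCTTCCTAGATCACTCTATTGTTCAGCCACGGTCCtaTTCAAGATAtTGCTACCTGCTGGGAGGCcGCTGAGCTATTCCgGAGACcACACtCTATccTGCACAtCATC
Vmn1r167 (family B), chr7:23470366-23470566, minus strand: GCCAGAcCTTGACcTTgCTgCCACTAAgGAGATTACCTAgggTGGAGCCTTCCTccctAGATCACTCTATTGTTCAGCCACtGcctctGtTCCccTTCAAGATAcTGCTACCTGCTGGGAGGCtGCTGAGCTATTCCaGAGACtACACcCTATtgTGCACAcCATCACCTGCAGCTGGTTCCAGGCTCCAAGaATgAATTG

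In the next windows, capitals mark matches to the consensus sequences searched. They are shown as the strongest member with a CTCF consensus, in an intron of Tm6sf1, the member with an ESRRB consensus inside Esrrb, the strongest member near a pluripotency gene, upstream of Klf2, and the strongest member of all, in which no consensus was found.
Tm6sf1, chr7:81868209-81868409: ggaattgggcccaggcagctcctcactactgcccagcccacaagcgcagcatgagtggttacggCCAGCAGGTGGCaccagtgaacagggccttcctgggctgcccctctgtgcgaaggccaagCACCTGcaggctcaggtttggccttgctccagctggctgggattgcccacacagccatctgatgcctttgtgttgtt
Esrrb, chr12:86501941-86502141: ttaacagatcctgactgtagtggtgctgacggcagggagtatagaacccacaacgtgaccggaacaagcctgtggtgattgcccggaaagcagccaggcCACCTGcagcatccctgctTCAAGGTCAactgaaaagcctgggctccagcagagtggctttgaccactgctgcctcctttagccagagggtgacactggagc
Klf2, chr8:72316203-72316403: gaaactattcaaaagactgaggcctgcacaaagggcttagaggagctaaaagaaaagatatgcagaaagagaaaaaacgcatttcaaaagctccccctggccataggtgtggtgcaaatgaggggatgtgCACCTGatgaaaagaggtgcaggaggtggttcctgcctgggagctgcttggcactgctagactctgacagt
BC107364, chr3:96486103-96486303: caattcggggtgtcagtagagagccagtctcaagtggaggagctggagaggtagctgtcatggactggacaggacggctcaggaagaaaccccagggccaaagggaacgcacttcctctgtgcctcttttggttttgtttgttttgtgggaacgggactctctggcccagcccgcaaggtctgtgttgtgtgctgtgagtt

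Most members were weak peaks. The strength of a peak is given as its percentile, by −log10 p, in the list of its own library, where 100 is the strongest peak. The median member stood at percentile 21.5 in K20R replicate 1 and at 23.4 in K20R replicate 2. The mean percentile over the lists that hold a region had a median of 21.9 in members, 30.3 in WT-restricted and 52.3 in common distal regions. Only 103 members were above percentile 50 in both K20R lists, and 163 were below percentile 10 in both. The deposited lists also hold peaks with q above 0.05, which made up 5.05% and 2.18% of all peaks in the K20R lists. Of the 2166 members, 1912 (88.3%) had a q of at most 0.05 in both K20R lists. The number of fragments over the summit, recovered from the deposited fold and p, had a median of 15 in K20R replicate 1 (from 8 to 199) and of 19 in replicate 2 (from 8 to 306). The percentiles of the 2 replicates differed by a median of 8.10 points, and 228 members differed by over 20 points. Summits of both libraries lay within 100 bp of each other at 1432 members. The members had a median merged width of 565 bp against 616 bp in WT-restricted and 949 bp in common regions. Other distal regions were narrower, at 423 bp, and weaker, at a median percentile of 16.2.

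**Figure D1:**
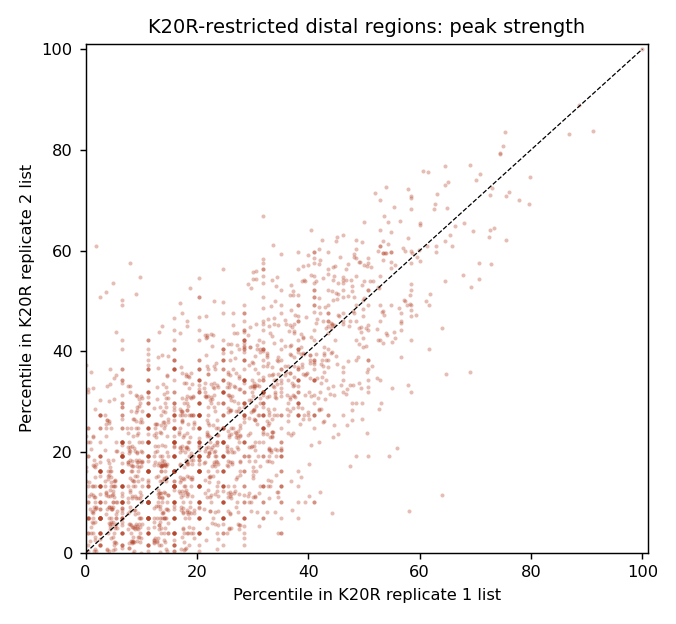
Each point is a K20R-restricted distal region, plotted by the percentile of its strongest peak in the list of K20R replicate 1 (x axis) and of K20R replicate 2 (y axis); the dashed line marks equal percentiles. Most members lie in the lower left, around the medians of 21.5 and 23.4, and 1 point lies at the top right corner, at 99.98 and 99.97.

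Absence from the WT lists rested on incomplete lists. The deposited peaks of a library carry running numbers with gaps, so called peaks were taken out before deposition by a rule that is not stated. Deposited peaks made up 51.7% and 50.5% of the peak numbers in the WT lists, and 58.6% and 60.8% in the K20R lists. Gaps were thus common in every list, and the K20R lists kept a larger part. Whether this difference bears on the members was not tested. At 489 members no number was missing between the neighbouring peaks in either WT list, at 448 one list had a gap and at 1229 both had one. Members also varied in how far the nearest WT peak was, with a median of 5180 bp, and 110 had one within 500 bp, the closest at 6 bp next to a member near Cryaa. At the promoter limit, the member closest to a TSS lay 1007 bp from that of Tex50, and the nearest region left out lay 1000 bp from that of Asb4. Just outside the rule were 3457 distal regions with a peak in both K20R lists and in 1 WT list, 2681 of them in WT replicate 2 and 776 in WT replicate 1. Their WT peak had a median percentile of 22.2.

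The strongest member stood far above the others. It spanned chr3:96485546-96486557, 33897 bp from the nearest protein-coding TSS, that of BC107364, and its summit lay 516 bp from the annotated start of the small nuclear RNA gene Gm25890. It reached percentile 99.98 in K20R replicate 1 and 99.97 in replicate 2, with 199 and 306 fragments over the summit and a fold of 21.4 and 23.2 over the local background. A deposited WT peak lay 449 bp away. In each WT list 1 peak number was missing at this place, so a called WT peak that was later removed cannot be told apart from none.

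The next strongest members were intergenic or in introns. A region near Hhat, the acyltransferase of Hedgehog proteins, reached percentile 88.5 in replicate 1 and 88.9 in replicate 2. A region in an intron of Grik2, a kainate receptor subunit, stood at 91.1 and 83.7. The nearest deposited WT peak was 160211 bp away, but 30 peak numbers were missing there in WT replicate 1 and 3 in WT replicate 2. Regions near Tbl1xr1, a corepressor subunit, near Gab1, a signalling adaptor, and near Dusp4, a MAP kinase phosphatase, followed, at 86.7 and 83.2, at 75.4 and 83.4, and at 75.05 and 80.8. The 12 strongest also included members near Pced1b, at 59 bp from the start of the lincRNA gene Gm32885, and near Gnai1, Fbxw11, Arid2 and Ank3. Their percentiles ranged from 70.1 to 79.8 in the 2 lists. At each of these members, as at those named before them, peak numbers were missing in at least 1 WT list. Of the 12, 7 windows had a partner of like sequence elsewhere, as described next.

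Members had a partner of like sequence among the distal regions more often than other distal regions did. Windows around all distal summits, 150 bp to either side, were compared with BLASTN, and a region was counted as having a partner where at least 100 aligned bases were at least 80% identical with another distal window over 1000 bp away. A partner was found for 433 of the 2166 members, 20.0% (95% Wilson interval 18.4% to 21.7%). The share was 3.52% in WT-restricted, 8.88% in common and 8.06% in other distal regions. With at least 200 aligned bases the shares were lower, at 7.89% of members, 1.03% of WT-restricted, 3.56% of common and 2.07% of other regions. At 90% identity they were 9.05%, 0.966%, 3.63% and 2.57%. When the partner had to belong to the same set, they were 12.9%, 1.54%, 7.49% and 7.05%, although the sets differ in size. It was higher in stronger members. In those with a mean percentile of up to 15 it was 11.6%, between 15 and 30 it was 19.5%, between 30 and 50 it was 25%, and above 50 it was 39.0% (31.8% to 46.7%). In WT-restricted regions it stayed between 3.13% and 4.06% over the same 4 ranges. Intergenic members had a partner in 25.1% and intronic members in 14.2%. Among the 489 members without a missing peak number, the share was 17.2%. All intervals cover counting error only, since regions of a library are not replicates.

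**Figure D2:**
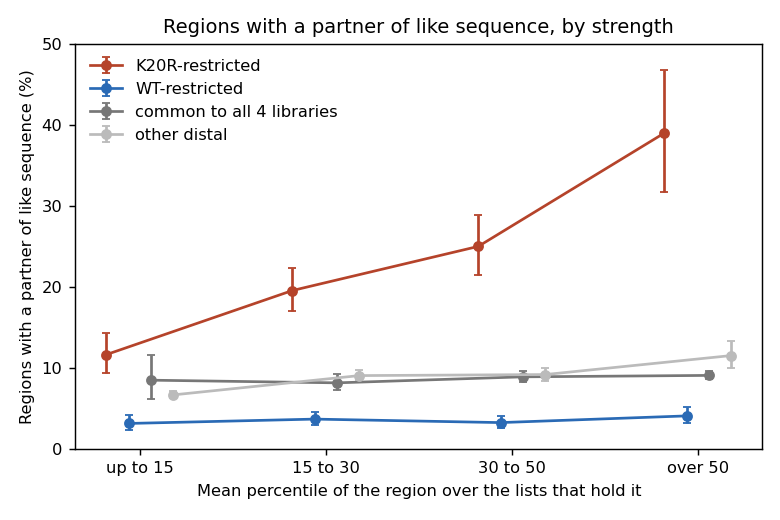
The share of regions with a partner of like sequence (y axis, percent) is plotted against the mean percentile of the region over the lists that hold it (x axis, 4 ranges), for K20R-restricted, WT-restricted, common and other distal regions; bars are 95% Wilson intervals for counting error. The K20R-restricted regions climb from 11.6% to 39.0%, while WT-restricted regions stay between 3.13% and 4.06%.

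The summits of members also lay more often in sequence that the reference genome marks as repetitive. This was so for 422 members, 19.5% (17.9% to 21.2%), against 7.24% of WT-restricted and 10.0% of common distal regions. At 1000 bp from the summit the shares were closer, at 28.7%, 23.4% and 26.3%. In members the share at the summit was 15.3% up to percentile 15 and 30.2% above percentile 50. In the libraries as a whole, 11.7% and 11.9% of the distal peaks of the K20R lists had a masked summit, against 9.73% and 9.77% in the WT lists. These shares include the K20R-restricted and WT-restricted regions themselves, so they restate part of the selection.

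Within the members, 282 regions fell into 34 families of 2 or more regions, linked by such an alignment in either direction. Members of a family could be joined through others without resembling each other directly. The largest had 64, 38, 25, 23, 18 and 14 members and are called families A to F. Family C was the strongest, with a median mean percentile of 51.3, and 23 of its 25 members were intergenic, spread over 14 chromosomes. Family B, with a median of 34.6, lay on 17 chromosomes, and it included 2 of the 12 strongest members, near Gnai1 and Arid2. The longer windows compared with BLASTN around the summits near Gnai1 and Vmn1r167, of which the central bases are printed above, were 82.7% identical over 271 aligned bases. No member of families B, C, D or F had a CTCF consensus, and 3 members each of A and E had one. Of the 25 members of family C only 1, and of the 38 of family B only 5, had no missing peak number in either WT list, so that a removed WT peak cannot be told apart from none at most of them. The type of mobile element was not determined, because no repeat annotation was used here.

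Copies of these sequences were then looked up in the whole genome, with at least 200 aligned bases at 80% identity to 1 representative window per family. Family C had 505 such copies, and 447 of them had no peak in any list. Of the others, 23 overlapped a K20R-restricted region, 21 a common one, 14 another distal region and none a WT-restricted one. Family B had 698 copies, with 24 at K20R-restricted and 48 at common regions, and family F had 343, with 15 and 24. Neither had a copy at a WT-restricted region. Family D had 1830 copies, of which 18 overlapped a K20R-restricted, 3 a WT-restricted and 43 a common region. Most copies were therefore without a peak in all 4 lists. The representatives of families A and E matched 1 and 13 places at this length. Reads of low mapping quality had been discarded, which lowers the coverage of near-identical copies in all libraries.

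The ranks of common distal regions were used to choose their summits, but not to select the members. Common distal regions stood higher in K20R where they resembled a member. Among all 23033 of them, both K20R percentiles lay above both WT percentiles in 19.7%, and below both in 36.9%. A percentile is relative to its own list, and the lists differed in length. In replicate 1 the length was 59783 peaks for WT but 51823 for K20R. In replicate 2 it was 66703 for WT but 55832 for K20R. The effect of list length on the shares above and below was not tested. Of the 1040 common regions that resembled a member in sequence, 476 (45.8%) were above and 197 (18.9%) below. Common regions that resembled another distal region but no member were above in 23.9% and below in 30.2%.

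The difference was largest in family C. The 22 common regions of this family had a median percentile of 21.6 in WT replicate 1 and 34.1 in WT replicate 2, but of 76.0 in K20R replicate 1 and 76.7 in K20R replicate 2. All 22 had both K20R percentiles above both WT percentiles. In family B, with 138 common regions, the WT medians were 49.5 and 57.8 and the K20R medians 68.2 and 70.3, and 93 regions (67.4%) were above. In family D, 35 of 59 common regions were above and 3 below. In family F, 14 of 27 were above and 1 below. Families A and E stood closer to the background, with 32.5% and 26.4% above. These libraries are the ones from which the members were chosen, and regions of a family are linked by likeness of sequence, so they are not independent. In addition, the medians of 2 WT and 2 K20R libraries cannot give an exact permutation p below 0.333, which was the value for families A, B, C, D and F.

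**Figure D3:**
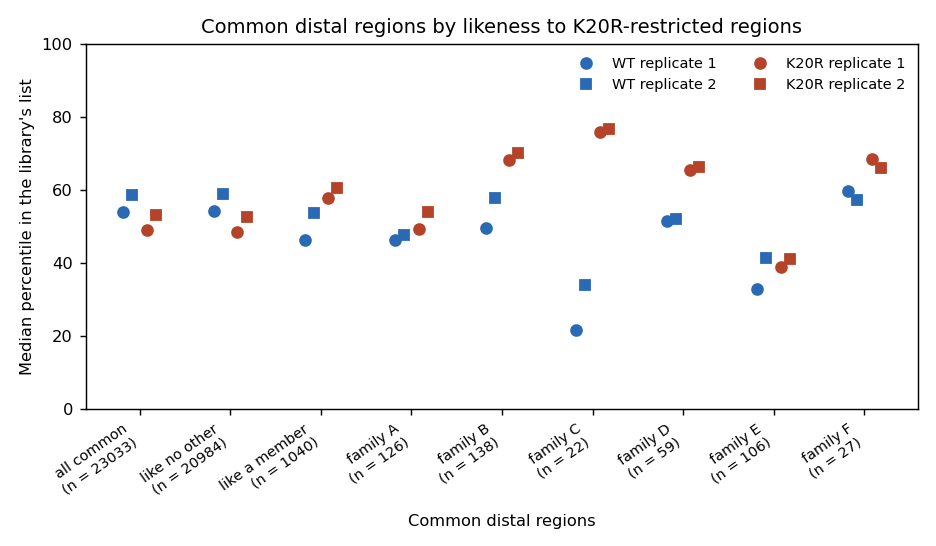
For groups of common distal regions (x axis, with the number of regions), the median percentile in each library's list (y axis) is shown, with WT libraries in blue, K20R libraries in red, replicate 1 as circles and replicate 2 as squares. In family C the WT libraries stand at 21.6 and 34.1 and the K20R libraries at 76.0 and 76.7, whereas over all common regions both K20R libraries stand below both WT libraries. The WT lists are longer than the K20R lists, and the effect of list length on the percentiles was not tested.

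Consensus sequences of transcription factors were searched on both strands within 100 bp of each summit. Of 26 searched, 6 had a share in members whose 95% Wilson interval lay above that of WT-restricted regions, and 5 had one below. Those above were CTCF, KLF (GGGNGTGG), ESRRB (TCAAGGTCA), the E-box CAGGTG, ETS (CCGGAAGT) and NRF1 (GCGCATGCG). Those below were GATA, FOX, T-box (TCACACCT), ZIC (CACAGCAGG) and OTX. Against common regions, 2 had an interval above, ESRRB and AP-1, and 3 had one below, CTCF, ZIC and TFAP2. AP-1 was in 8.91% of members and 7.42% of common regions. The E-box was in 20.7% and 20.5%, ETS in 0.785% and 0.603%, and NRF1 in 0.416% and 0.234%, with overlapping intervals. The CTCF consensus can hold the E-box letters within it. A match is a description of the sequence and does not show binding.

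The CTCF consensus was found in 96 members, 4.43% (3.64% to 5.38%). The share was 2.52% in WT-restricted, 10.5% in common and 7.12% in all distal regions. Without WT replicate 2, the regions that met the rule held it in 7.97%, and without K20R replicate 2 in 3.01%. At 1000 bp from the summit 0.231% of members held it. Matches were concentrated at the summit, with 43 in the 50 bp before it and 35 in the 50 bp after it. The share rose from 1.89% of members up to percentile 15 to 7.55% above percentile 50. In WT-restricted regions it was 2.18% and 1.27% in these ranges, so members were not above them in the weakest range. The strongest member with the consensus lay in an intron of Tm6sf1, at percentiles 70.1 and 73.9.

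The ESRRB consensus, the binding sequence of a nuclear receptor of naive pluripotent cells, was found in 27 members, 1.25% (0.858% to 1.81%). It was in 0.280% of WT-restricted, 0.356% of common and 0.440% of all distal regions. With only peaks of −log10 q of at least 5, 11 of the 1529 regions that met the rule held it, 0.719% (0.402% to 1.28%), against 0.275% of WT-restricted and 0.323% of common regions, and the intervals then overlapped. At 1000 bp from the summit 0.6002% of members held it, against 0.560% of WT-restricted and 0.590% of common regions. In those 2 sets the share was thus lower at the summit than at this distance, while in members it was higher. Within 500 bp of the summit the matches in members showed no single central peak. None of the 159 members above percentile 50 had it (interval up to 2.36%). The strongest, in an intron of Nufip2, stood at percentiles 35.8 and 41.1. One lay inside Esrrb itself, at 25.8 and 4.91, and a pair lay near Ncoa3, a coactivator of nuclear receptors.

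The GATA, FOX, T-box, OTX and ZIC consensus sequences were less frequent in members than in WT-restricted regions. All but ZIC were near their shares in common regions. TCF-LEF was in 2.63% of members and 3.54% of WT-restricted regions, and CDX-HOX in 1.15% and 1.97%, with overlapping intervals. GATA, searched as AGATAAG, was found in 1.75% of members, against 6.18% of WT-restricted and 3.19% of all distal regions. FOX, searched as TGTTTAC, was found in 2.59%, against 6.96% and 3.85%. T-box was found in 0.739%, against 2.90% and 1.45%. OTX, searched as CTAATCC, and ZIC were in 1.75% and 1.06% of members and in 2.98% and 2.61% of WT-restricted regions. In common regions GATA was at 2.34%, FOX at 3.43%, T-box at 1.10% and OTX at 2.14%, with intervals that overlapped those of the members, and ZIC was at 1.87%, above its interval in members. FOXH1 was in 3.51% of members, 3.94% of WT-restricted and 2.93% of common regions. In WT-restricted regions GATA matches were most frequent at the summit, while in members they were not. KLF, in 12.5% of members, was close to its share in common regions, 12.04%. The POU octamer ATGCAAAT, whose letters also lie within the OCT-SOX composite, was in 2.17% of members, and its interval overlapped those of both other sets.

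**Figure D4:**
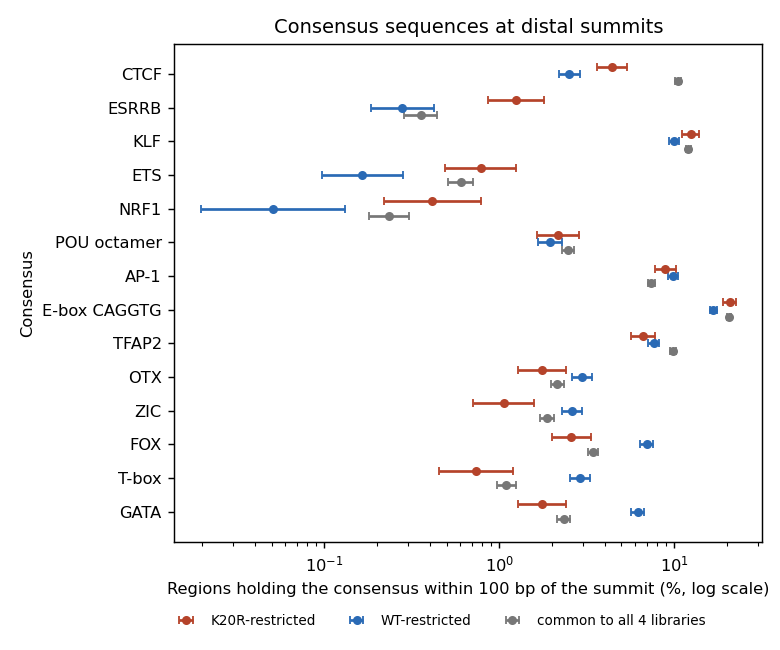
The share of regions that hold each consensus within 100 bp of the summit (x axis, percent, log scale) is shown for K20R-restricted, WT-restricted and common distal regions; bars are 95% Wilson intervals for counting error. ESRRB is at 1.25% in members and 0.280% in WT-restricted regions, and GATA is at 1.75% and 6.18%.

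**Figure D5:**
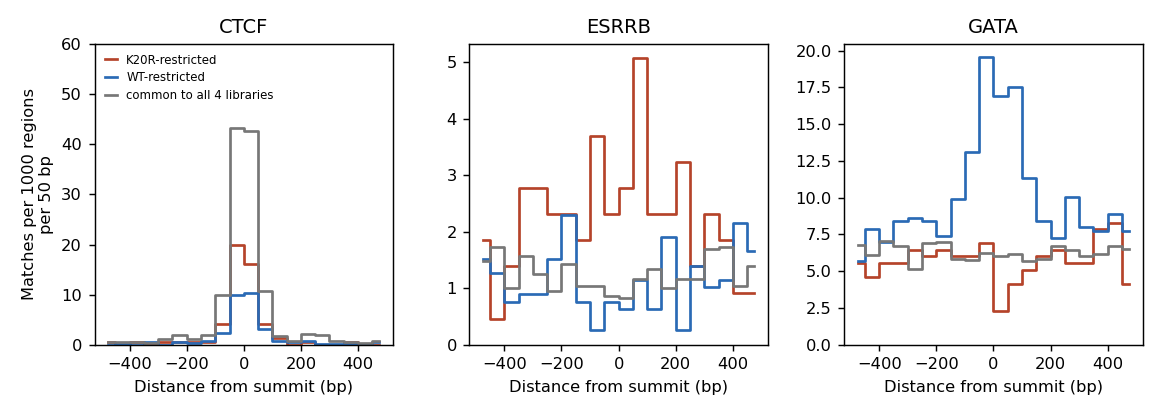
Matches per 1000 regions in bins of 50 bp (y axis) are plotted by distance from the summit (x axis, bp) for the CTCF, ESRRB and GATA consensus in the same sets of regions. CTCF matches in members peak at the summit, ESRRB matches are spread, and GATA matches rise at the summit in WT-restricted regions only.

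Whole libraries were compared by the share of their own distal peaks with each consensus. CTCF was in 7.24% and 7.86% of the WT distal peaks, and 8.98% and 9.68% of the K20R ones held it (means 7.55% ± 0.439 and 9.33% ± 0.501, SD, n = 2 each). The WT values for ESRRB were 0.354% and 0.308%, and the K20R values 0.413% and 0.502%. For GATA the WT values were 3.25% and 3.46%, and the K20R values 2.08% and 2.07%. Both K20R lists lay above both WT lists for 9 of the 26 sequences and below for 11, and the genotypes overlapped for 6. The 3 named had an exact permutation p of 0.333 and a Benjamini-Hochberg adjusted value of 0.433 over the 26 sequences. No sequence passed an adjusted p of 0.05, or an unadjusted one, and none could have in this design. These shares include the members and the WT-restricted regions themselves.

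Members were slightly more often intergenic than intronic, with 1152 and 1014, and the intergenic share of 53.2% (51.1% to 55.3%) was above the 46.3% of WT-restricted regions and near the 55.0% of common regions. Without K20R replicate 1 the share was 49.7% and without K20R replicate 2 it was 49.3%, so that intronic regions were then the larger part. Their median distance to a protein-coding TSS was 28096.5 bp, against 33664.5 bp in WT-restricted and 24194 bp in common regions. Median GC content of the window was 51.2%, against 50.7% and 53.2%. The mean number of CpG dinucleotides per window was 3.77 in members, 2.44 in WT-restricted and 4.77 in common regions. A TSS of an annotated gene that is not protein-coding lay within 1000 bp of 107 members (4.94%), against 3.34% of WT-restricted and 6.59% of common regions.

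Members were found on all chromosomes but Y, which held only 4 distal regions. They made up 5.10% of the distal regions of chromosome 8 (4.40% to 5.90%, 169 of 3315) and 2.53% of those of chromosome 14 (1.95% to 3.26%, 57 of 2257), the highest and lowest shares among the autosomes. Of the 15 windows of 5 Mb with the highest shares, among 421 windows with at least 50 distal regions, 5 lay on chromosome 8. One, from 105 to 110 Mb, held 24 members among 257 distal regions (9.34%). Common distal regions of this window had WT median percentiles of 47.9 and 52.9, and K20R ones of 53.05 and 59.9. Chromosome 15 from 40 to 45 Mb had the highest share (10.3%), with K20R medians of 37.4 and 45.2 against 40.1 and 51.5 for WT. Next came chromosome 12 from 40 to 45 Mb (9.68%), with K20R medians of 39.0 and 37.0 against 50.7 and 50.2. The direction thus differed between windows. The part of the shift on chromosome 8 in the count of members was not tested.

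Most members stood alone, but 436 had another member within 50 kb. The largest group held 5 members over 122 kb at Gab1 and Usp38 on chromosome 8, the strongest of them at percentiles 75.4 and 83.4 and the other 4 between 1.42 and 23.3. Groups of 4 lay at Zfp217, Elovl6 and Etnk1. At Zfp217, a zinc finger gene, they spanned 26.8 kb without a WT-restricted region and stood between 7.82 and 52.0. At Elovl6, a fatty acid elongase, they stood between 6.56 and 47.1, with 1 WT-restricted region among them, and at Etnk1, an ethanolamine kinase, between 1.05 and 53.4, with none.

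Of 21827 protein-coding genes, 2591 (11.9%) had a member within 50 kb of a TSS. In the list of core and naive pluripotency genes it was 8 of 21, and 11 of the 148 distal regions near these genes were members (7.43%), against 3.55% near all genes. WT-restricted regions lay near 9 of the 21, against 30.1% of all genes. Counting only members without a missing WT peak number, 3 of the 21 had one. When chromosomes 2, 8 and 14 were left out, 6 genes of the list had a member. The share over all genes is not given here for either of these counts, so neither can be set against the 11.9%. Genes of this list had a median of 6 distal regions within 50 kb, against 3 for all genes, and the other lists had medians from 2 to 7. In the list of primitive streak and early mesoderm genes, 6 of 28 had a member and 22 of 28 a WT-restricted region, and members made up 3.55% of the distal regions. Near cardiac genes they made up 5.88%, near neural crest genes 4.41%, and near the genes of the other 6 lists 1.19% to 3.00%. The counts were 7 and 14 of 24 for cardiac, 4 and 15 of 19 for endoderm, 2 and 13 of 23 for neuroectoderm, 2 and 5 of 18 for formative pluripotency, and 2 and 4 of 12 for neural crest genes. In trophoblast genes they were 1 and 6 of 12, in germ line and 2-cell genes 1 and 5 of 13, and in fibroblast genes 2 and 10 of 19. These lists were not used to choose the members, and their counts are descriptions.

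Around the pluripotency genes the strongest member lay 2730 bp upstream of Klf2, a Krüppel-like factor, at percentiles 62.7 and 69.2. No peak number was missing there in either WT list. A member 3603 bp downstream of the TSS of Sox2, a partner of OCT4, stood at 42.0 and 50.5, likewise without a missing number. A member in an intron of Fgf4, a growth factor gene, stood at 47.8 and 52.9, with 1 number missing in each WT list. A member 12621 bp downstream of Nanog, a homeobox factor, stood at 49.4 and 32.6, with 4 and 2 numbers missing. Zfp42, known as Rex1 and a marker of undifferentiated cells, had a member 14075 bp upstream at 31.9 and 50.8, with 0 and 1 missing. A pair of members lay upstream of Tdgf1, the Nodal co-receptor Cripto, in introns of Lrrc2, at 30.8 and 40.4 and at 38.1 and 45.98, with 0 and 3 missing at both. Esrrb had another pair, in its introns, with 1 or 2 numbers missing in each WT list. Tfcp2l1, a factor of the naive state, had a weak one at 13.3 and 11.8 with none missing.

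The promoters of these genes were compared by their rank among 13937 genes with a promoter peak in all 4 lists. Over all of these genes, both K20R ranks lay above both WT ranks in 23.8% and below both in 23.0%. For the 2006 genes with a member within 50 kb the shares were 25.8% and 21.3%, close to that background. Of the 7 pluripotency genes with a member and a ranked promoter, 4 were above and 0 below. The Zfp42 promoter had WT percentiles of 32.3 and 47.0, whereas its K20R percentiles were 61.7 and 69.9. For Tfcp2l1 the WT values were 50.9 and 58.7, and the K20R values 70.5 and 64.3. Klf2, at 93.6 and 94.2 against 95.8 and 97.1, and Sox2, at 11.3 and 10.2 against 17.7 and 20.9, were the others. Nanog, Esrrb and Fgf4 overlapped between genotypes. Zfp42 and Klf2 are on chromosome 8, which had the highest share of members among the autosomes. Whether their promoter ranks are part of a wider shift was not tested, and promoters of list genes without a member were not compared.

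Near mesoderm genes the strongest member lay 39990 bp downstream of Gsc, the homeobox gene goosecoid, at percentiles 55.6 and 57.1. The TSS nearest to this member was that of Serpina3n, at 26611 bp. A member 7370 bp downstream of Mesp1, a basic helix-loop-helix gene, stood at 55.0 and 41.9. The promoter of the neighbouring Mesp2 had WT values of 59.96 and 68.5 against K20R values of 16.8 and 23.7, while that of Mesp1 stood at 3.36 and 3.08 against 16.5 and 20.2. T, the mesoderm factor Brachyury, had promoter percentiles of 39.7 and 36.1 in WT, against 16.0 and 12.2 in K20R, and a member 13473 bp upstream at 17.6 and 29.7. Promoters with a member nearby thus stood on either side. Among cardiac genes the strongest member lay in an intron of Tnni1, a troponin I gene, at 29.6 and 40.9, and held a CTCF consensus. Myl2, a myosin light chain gene, had 3 members within 50 kb, and none was above percentile 31.3.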

How the data were processed

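ATAC-seq peak lists of 2 WT and 2 CTCF-K20R libraries were analysed, grouped by the sample labels. According to the study's methods and the submitters' processing notes, the authors trimmed reads (Trim Galore), aligned them to mm10 (Bowtie2), removed low-quality, duplicate and blacklisted reads, and called peaks with MACS2 for each library. The deposited score is 10 times −log10 p, truncated. The deposited ratio gives the fold over the local background, and the authors' −log10 p-value and q-value refer to the same background. Reads were not used here, so the depth is not known and no count test was made.

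Peaks were merged where they shared 1 bp and annotated with GENCODE vM21 on GRCm38.p6, the same build. Strength is a within-list percentile. Summit pileups were recovered from fold and p. Sequences came from the RefSeq copy of the genome, and BLASTN (BLAST+) found partners. Scripts were tested on simulated peak lists. Intervals are 95% Wilson intervals. The members, gene lists and consensus sequences were chosen with earlier results of these data known. Named regions are the 12 strongest (1 is not reported here), the strongest per gene list or consensus, and the largest groups; other genes were named after their values were seen. The study's methods describe the libraries of a genotype as biological replicates, without saying how they were derived.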

Additional observations from a re-analysis of the deposited data

How the results depend on the processing

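The 2166 members depended on the lists used. With every list cut to an equal number of its strongest peaks there were 3810, and 489 had no missing peak number in either WT list. Leaving out 1 library gave 2949 to 5573, the intergenic share then ranged from 49.3% to 53.1%, the CTCF share from 3.01% to 7.97%, the median GC content from 50.7% to 51.2% and the masked share from 16.2% to 18.2%. The largest count came without K20R replicate 1 (5573), and 4881 were found without K20R replicate 2 and 4867 without WT replicate 2. With −log10 q of at least 5 the intergenic share was 58.5% and the CTCF share 5.89%, and with lists of equal size the CTCF share was 5.72%. Without missing numbers, the intergenic share was 56.4%, the median TSS distance 16575 bp and 3 pluripotency genes had a member. Over 5 kb from a TSS the median distance was 31943.5 bp. Within 50 bp of the summit the CTCF share was 3.37%. Within 10 kb 4 and within 100 kb 13 pluripotency genes had a member. The shares over all genes are not given here for these alternative counts of pluripotency genes.

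Alternatives for likeness of sequence and for the ESRRB share were chosen after seeing the data. The share of members with a partner was 7.89% with 200 aligned bases, 9.05% at 90% identity and 13.1% to 17.8% without 1 library. The ESRRB share was 0.719% at −log10 q of at least 5, and 0.842% to 1.06% without 1 library.

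With the replicate block, the difference in CTCF share between genotypes was 1.78 percentage points and the lowest exact p was 0.5. Deviations from the group means of same-numbered libraries correlated at r = 0.0320. With 2 libraries per genotype these deviations mirror each other, so this value cannot show whether same-numbered libraries were prepared together. In the paired and unpaired tests 0 sequences passed the threshold. Without 1 library the differences between genotypes (in percentage points) changed sign for SOX (-0.00489 to 0.0752), TFAP2 (-0.0467 to 0.361), TEAD (-0.140 to 0.04997), RFX (-0.0523 to 0.0129) and REST (-0.00564 to 0.00213). At −log10 q of at least 5 they changed sign for NFY (0.0557), REST (7.37e-05) and p53 (-0.00105). The cause of these changes was not tested.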
